A study of Mus musculus with 3 samples.

Results

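*Mecom*, *Prdm16* and *Hlf* were examined as 3 loci in the open chromatin of hematopoietic stem cells (HSCs). Each locus was the gene body in the mm10 genome plus 200 kb either side, cut into bins of 500 bp, and these are 3 of the 21755 protein-coding genes on chromosomes 1 to 19 and X. The cells were LSKCD150+CD48−CD34− cells (Lin−Sca-1+c-Kit+, lacking CD48 and CD34 and carrying CD150) sorted from bone marrow of wild-type 8-week-old female mice, and no other group was used here. How many mice were pooled was not given in the sources read. They were profiled by DOGMA-seq, in which the same cells give open chromatin by ATAC, RNA and antibody tags. The ATAC library analysed here is 1 library from 1 preparation, so no value below has a replicate, and every interval covers counting error within this library. Of the 3757 barcodes called as cells from ATAC and RNA together, 3108 (82.7%) had more than 3000 fragments in peaks and were kept.

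The 3 genes code for transcription factors that are known for their part in keeping HSCs. *Mecom* and *Prdm16* are paralogs of the PRDM family. Their proteins bind DNA through 2 separate groups of zinc fingers and recruit the corepressors CtBP1 and CtBP2. *Mecom* has a long form, MDS1-EVI1, which carries a PR domain at its amino end, and a short form, EVI1, which starts from a promoter far inside the locus and lacks that domain. *Hlf* belongs to the PAR bZIP family, leucine zipper factors with *Tef* and *Dbp* as the other members, and *Nfil3* codes for a repressor that binds the same DNA sites. ATAC reads out where the Tn5 transposase can insert its adapters, which it does in nucleosome-free promoters and enhancers. It does not measure transcription.

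The library held 37137164 fragments of the kept cells on chromosomes 1 to 19 and X, with a median of 11457 per cell and a range of 3977 to 194399. A count of 0 cells allows a share of cells with a fragment of up to 0.0965% (3 counts of 3108). A share of cells with a fragment is not the share of cells in which a site is open, since an open site can give no fragment in a cell. The sorted identity was checked on start windows, 500 bp either side of the annotated starts of a gene. A fragment near the best start was found in 26.9% of cells for *Kit*, 20.7% for *Hoxb5*, 15.5% for *Fgd5* and 5.95% for *Procr*. The start of *Slamf1*, which codes for the sorted antigen CD150, reached 3.31%, and that of *Ly6a*, the gene of Sca-1, 1.35%. The 4 neutrophil genes lay between 0.0322% (*Ly6g*) and 1.06% (*Elane*). Of the T cell genes, *Cd3d* reached 7.88% and the other 3 stayed under 1%. Of the B cell genes, *Pax5* reached 23.8% and *Ebf1* 6.66%, with *Cd79a* at 0.997%. The erythroid genes ranged from 0.611% (*Hbb-bt*) to 14.2% (*Epor*). The 4 megakaryocyte genes lay between 12.6% (*Gp9*) and 40.6% (*Itga2b*). The part of other cell types in the values below was not tested.

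All 3 genes lie on the minus strand, and sequences are given 5′ to 3′ along the gene, from GRCm38 (mm10), with the promoters as listed by RefSeq. *Mecom* spans chr3:29951296-30548008, *Prdm16* chr4:154316125-154636873 and *Hlf* chr11:90336536-90390895. The 250 bases before each main start are shown because the start windows below are centered there. The capitals in both *Mecom* promoters mark a shared run of 15 bases, the longest that they have in common. It starts 89 bases before the long-form start and 24 bases before the short-form start, and among the 32851 RefSeq promoter windows (300 bases each) it occurred in these 2. In the *Hlf* promoter the capitals mark an E-box string and a CRE string (TGACGTCA). None of the strings searched for was found in the *Prdm16* promoter, and strings in the *Mecom* promoters are not marked.
Mecom long-form promoter (chr3:30509760-30510009): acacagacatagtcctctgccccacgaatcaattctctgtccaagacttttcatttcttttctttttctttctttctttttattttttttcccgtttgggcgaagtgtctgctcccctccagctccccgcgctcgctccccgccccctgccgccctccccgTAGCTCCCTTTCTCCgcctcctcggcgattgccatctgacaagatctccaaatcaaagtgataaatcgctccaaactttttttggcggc
Mecom short-form promoter (chr3:30013205-30013454): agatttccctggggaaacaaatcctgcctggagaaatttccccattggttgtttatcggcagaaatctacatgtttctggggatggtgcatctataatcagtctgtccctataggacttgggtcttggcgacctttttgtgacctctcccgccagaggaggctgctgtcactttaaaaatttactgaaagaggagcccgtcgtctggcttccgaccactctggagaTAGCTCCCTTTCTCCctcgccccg
Prdm16 promoter (chr4:154636874-154637123): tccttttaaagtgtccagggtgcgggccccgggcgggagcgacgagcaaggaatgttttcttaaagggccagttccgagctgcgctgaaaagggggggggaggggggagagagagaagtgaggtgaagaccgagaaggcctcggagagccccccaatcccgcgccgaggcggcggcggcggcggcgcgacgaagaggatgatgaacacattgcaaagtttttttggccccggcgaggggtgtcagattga
Hlf promoter (chr11:90390918-90391167): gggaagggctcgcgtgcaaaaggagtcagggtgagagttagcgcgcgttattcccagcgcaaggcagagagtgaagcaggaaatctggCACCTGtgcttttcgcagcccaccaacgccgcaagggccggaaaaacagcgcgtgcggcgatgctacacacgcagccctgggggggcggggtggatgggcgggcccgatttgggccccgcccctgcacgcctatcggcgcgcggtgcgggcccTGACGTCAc

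The paralogs *Mecom* and *Prdm16* also shared a run just downstream of their main starts. In the 300-base promoter windows this run was 24 bases long, and it occurred in 2 of 32851 windows, those of the *Mecom* long form and of *Prdm16*. It begins 26 bases after the *Mecom* long-form start (chr3:30509710-30509733) and 9 bases after the *Prdm16* start (chr4:154636841-154636864). With 300 bases either side of the starts compared, the identical stretch is 36 bases long. The longest run that the *Mecom* short-form promoter shared with that of *Prdm16* was 7 bases, and the *Hlf* promoter shared at most 11 bases with any of the others.
Run shared by Mecom and Prdm16: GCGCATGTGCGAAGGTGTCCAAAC

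A bin was called open when at least 5% of the kept cells had a fragment end in it, and open bins with at most 1 other bin between them were joined into an element. Genome-wide, 0.875% of bins were open. They formed 24626 elements. The *Mecom* locus had 22 open bins of 1995 (1.10%) in 11 elements, the *Prdm16* locus 34 of 1442 (2.36%) in 19 elements, and the *Hlf* locus 16 of 909 (1.76%) in 9 elements. Per Mb this is 11.03, 26.4 and 19.8 elements, at percentiles 36.2, 64.9 and 55.0 of the same windows around all protein-coding genes. The median bin had a fragment in 5 cells at *Mecom*, 9 at *Prdm16* and 4 at *Hlf*. The lowest open bin had 157 cells at *Mecom* and *Prdm16* and 159 at *Hlf*, against 143, 154 and 146 for the highest bin that was not called. Of the 39 elements, 23 were found in 5 to 10% of cells, 6 in 10 to 20% and 10 in at least 20%.

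**Figure D1:**
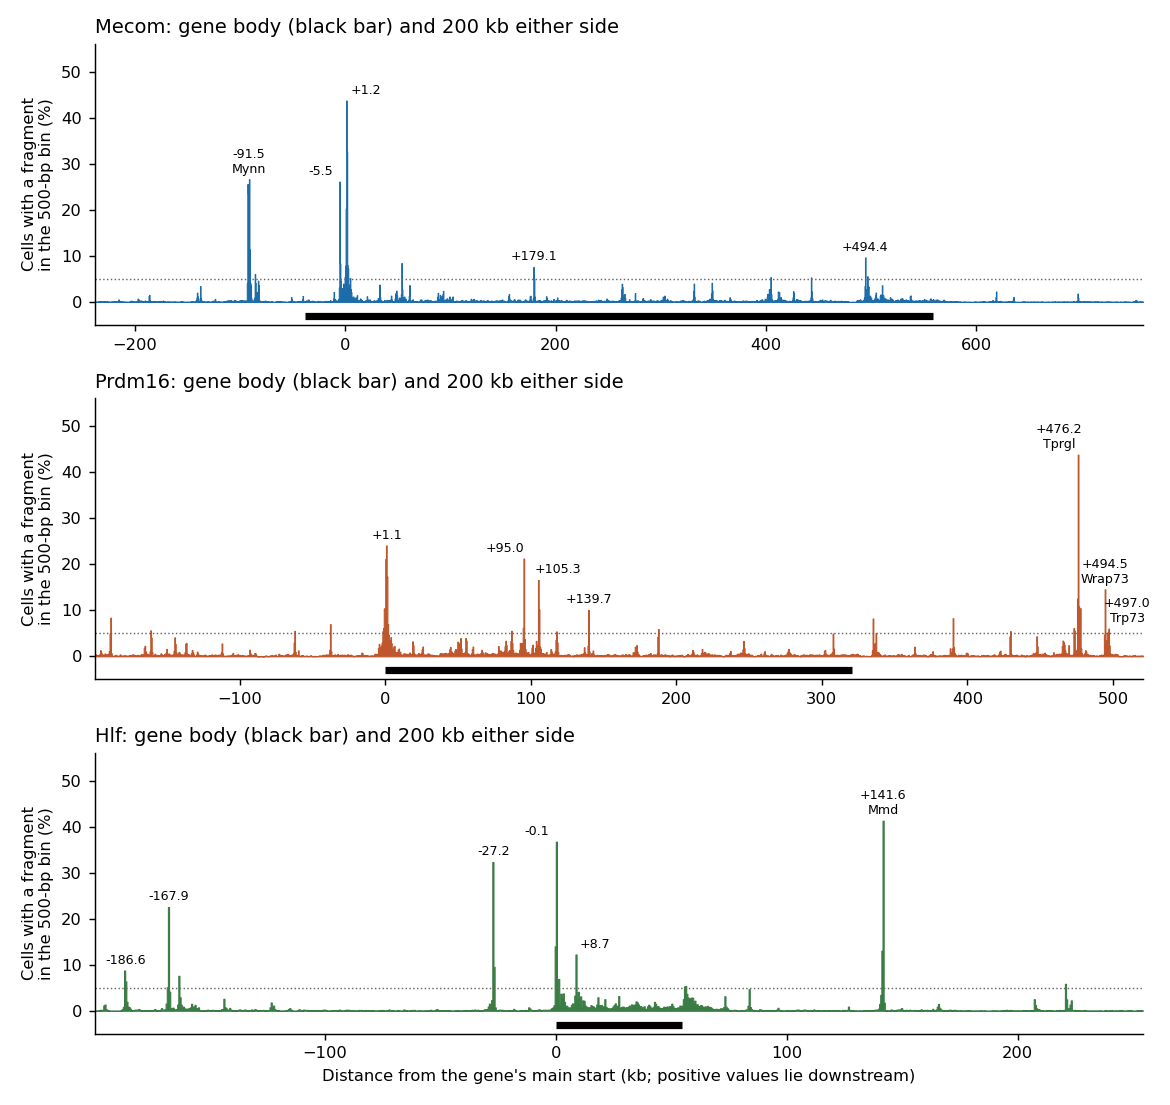
Percentage of the 3108 cells with a fragment end in each 500-bp bin (y axis) against the distance from the gene's main start in kb (x axis, positive downstream) for the 3 loci, with the gene body as a black bar, the 5% limit as a dotted line and the larger elements named by their distance and, at starts of other genes, by that gene. The tallest bins are those 1.2 kb inside *Mecom* (43.7% of cells), at the *Tprgl* start (43.8%) and at the *Mmd* start (41.3%).

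Measured over the gene body and 2 kb upstream, *Hlf* had the densest signal. It had 126 fragments per kb (a fragment with its ends in 2 bins counts in both), *Prdm16* 61.5 and *Mecom* 39.6, at percentiles 78.9, 61.2 and 50.4 of all protein-coding genes. At least 1 fragment fell in the gene body of *Mecom* in 96.9% of cells, of *Prdm16* in 94.9% and of *Hlf*, the shortest of the 3, in 67.8%. The share of a locus's fragments that fell in open bins was 38.2% at *Mecom*, 36.2% at *Prdm16* and 44.8% at *Hlf*, at percentiles 26.5, 24.6 and 34.6 of the gene windows.

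Elements are named by the gene and the distance of their summit from its main start, with positive distances downstream. The centers shown here, 100 bases either side of the summit of fragment ends, are those of the *Mecom* long-form start element, of 5 of the stronger elements that lie outside annotated starts, and of 1 element with a string of the EVI1 type. Capitals mark matches to the strings searched for, which are listed with the motif counts.
Mecom +1.2 kb (chr3:30508456-30508656): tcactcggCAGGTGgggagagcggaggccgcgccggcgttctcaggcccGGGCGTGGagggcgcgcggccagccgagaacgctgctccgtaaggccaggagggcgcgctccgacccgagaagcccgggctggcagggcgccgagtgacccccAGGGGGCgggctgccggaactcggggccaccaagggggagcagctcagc
Mecom -5.5 kb (chr3:30515116-30515316): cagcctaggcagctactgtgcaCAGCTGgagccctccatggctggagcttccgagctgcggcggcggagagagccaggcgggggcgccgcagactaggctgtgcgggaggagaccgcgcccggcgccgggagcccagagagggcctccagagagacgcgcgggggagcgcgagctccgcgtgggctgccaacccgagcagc
Prdm16 +95.02 kb (chr4:154541756-154541956): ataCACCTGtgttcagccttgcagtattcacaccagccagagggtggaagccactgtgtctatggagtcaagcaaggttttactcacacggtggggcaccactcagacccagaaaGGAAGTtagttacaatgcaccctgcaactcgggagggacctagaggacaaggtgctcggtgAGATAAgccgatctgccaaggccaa
Prdm16 +105.3 kb (chr4:154531480-154531680): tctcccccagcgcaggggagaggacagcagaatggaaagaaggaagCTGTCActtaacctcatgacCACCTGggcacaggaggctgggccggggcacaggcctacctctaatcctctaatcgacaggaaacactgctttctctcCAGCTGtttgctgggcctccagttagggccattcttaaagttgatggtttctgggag
Prdm16 -161.2 kb (chr4:154797939-154798139): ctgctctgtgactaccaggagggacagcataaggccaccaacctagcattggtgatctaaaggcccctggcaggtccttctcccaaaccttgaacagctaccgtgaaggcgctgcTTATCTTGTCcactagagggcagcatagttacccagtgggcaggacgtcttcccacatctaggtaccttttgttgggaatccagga
Hlf -27.2 kb (chr11:90417987-90418187): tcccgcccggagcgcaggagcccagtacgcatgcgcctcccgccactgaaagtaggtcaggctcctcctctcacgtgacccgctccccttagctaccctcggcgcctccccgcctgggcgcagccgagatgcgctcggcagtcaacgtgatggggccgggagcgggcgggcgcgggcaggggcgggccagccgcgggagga
Hlf -167.9 kb (chr11:90558719-90558919): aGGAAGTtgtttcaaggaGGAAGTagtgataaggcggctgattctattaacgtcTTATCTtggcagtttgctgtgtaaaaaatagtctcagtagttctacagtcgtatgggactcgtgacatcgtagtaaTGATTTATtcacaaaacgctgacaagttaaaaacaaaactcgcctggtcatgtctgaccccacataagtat

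At *Mecom*, the strongest element lay at the 5′ end of the long form. The +1.2 kb element spans 3500 bp (chr3:30507001-30510500), from just upstream of the long-form start into intron 1, and was found in 1984 cells (63.8%, exact 95% binomial interval 62.1 to 65.5). By share of cells it lay at percentile 97.2 of the open elements of the genome, whose median width was 1000 bp and 95th percentile 2000 bp, and a wider element gathers more cells. Its best 500-bp bin was found in 43.7% of cells. It held 3767 of the 9625 fragments of the locus's elements (39.1%), and 38.2% of the locus's fragments fell in open bins at all. The -5.5 kb element (chr3:30514501-30515500) was found in 880 cells (28.3%, 26.7 to 29.9). It lies inside an intron of a transcript that starts 38.2 kb upstream, and it is the one *Mecom* element outside annotated starts with a CpG-rich center, with 32 CpG within 150 bases either side of its summit against a median of 11 over all elements. The other elements of the gene were found in 5.18 to 9.65% of cells. In the RefSeq transcript of the long form, which has 17 exons, 8 of the 11 elements lay in the first 2 introns, 4 in each. These introns are 271 and 228 kb long, and the 14 introns after them, 53.8 kb together, held none at the 5% limit. Genome-wide, 0.875% of bins were open, so a stretch of this length can hold none. A bin at +510.5 kb, in intron 3, had a fragment in 112 cells (3.60%). Intron 1 held the +1.2, +4.6, +53.6 and +179.1 kb elements, and intron 2 the +404.5, +443.0, +494.4 and +496.5 kb elements.

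Near the short form there were 2 elements, both over exons or introns of *Mecom* and the antisense *Mecomos*, whose fragments cannot be told apart. The +496.5 kb element covers the short-form start and was found in 173 cells (5.57%). The +494.4 kb element (chr3:30015001-30015500), 2.2 kb upstream of that start, was found in 300 cells (9.65%, 8.64 to 10.7). Their fragments differed in length. Of those at +494.4 kb, 65.2% were shorter than the DNA wrapped on a nucleosome, against 21.6% at +496.5 kb. Over all open elements the median of this share was 54.5%. Beyond the gene, the -91.5 kb element lies at the start of *Mynn*, which codes for the zinc finger protein myoneurin, and was found in 51.4% of cells. The -85.8 kb element lies at the start of *1600017P15Rik* and was found in 6.05%.

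At *Prdm16*, the signal was spread over more elements. The +1.1 kb element covers the start and the first part of intron 1 over 4000 bp (chr4:154635001-154639000), and was found in 1575 cells (50.7%, 48.9 to 52.4). It also covers the start of *Gm13111*, so the fragments there cannot be assigned to 1 gene. Intron 1, 108 kb long, held a pair of further strong elements. The +95.02 kb element (chr4:154541501-154542500) was found in 715 cells (23.0%, 21.5 to 24.5), and the +105.3 kb element (chr4:154531001-154532000) in 618 cells (19.9%, 18.5 to 21.3). Both were poor in CpG, with 6 and 4 around the summit, and 63.3% and 61.3% of their fragments were shorter than nucleosomal DNA. Intron 1 also held the +86.5 kb element (5.53%), at the start of *Gm13133*. Intron 2 held those at +117.8 kb (5.41%) and +139.7 kb (10.1%), and intron 3 the one at +187.4 kb (5.92%). The last 13 introns, 43.1 kb together, held none at the 5% limit, and a stretch of this length can hold none. The highest bin of the locus under the limit lies there, at +307.6 kb, with 154 cells (4.95%). Upstream of the gene, 4 elements between genes at -37.9, -62.6, -161.2 and -189.1 kb were found in 5.53 to 8.40% of cells.

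The 3′ side of the *Prdm16* locus held the starts of other genes. The *Tprgl* start (+476.2 kb) was found in 50.6% of cells and that of *Wrap73* (+494.5 kb) in 14.5%. The start of *Trp73*, the gene of the p53 family member p73, was found in 11.6% of cells, and 2 elements at starts of *Arhgef16*, the gene of a guanine nucleotide exchange factor, in 8.20% and 5.05%. *Megf6* held 2 elements (8.27% and 5.47%) and *Wrap73* 1 more (7.59%). Of the fragments in elements of the locus, 47.0% lay in elements placed at a start, exon or intron of *Prdm16*, which leaves out the +86.5 kb element at the *Gm13133* start, against 69.7% at *Mecom* and 30.7% at *Hlf*.

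At *Hlf*, most elements lay outside the gene. The -0.1 kb element over the start (chr11:90389501-90391500) was found in 1361 cells (43.8%, 42.0 to 45.6). In the 4-exon RefSeq transcript, the +8.7 kb element (12.2%) was the one element inside an intron. It lies in intron 2, at the start of a noncoding transcript of *Hlf*. The -27.2 kb element (chr11:90417501-90418500) was found in 1038 cells (33.4%, 31.7 to 35.1). It lies between annotated genes, and its center had 70.8% GC and 33 CpG, as many CpG as that of the *Hlf* start. Over the 3 loci, 25 elements lay outside annotated starts, and the *Mecom* -5.5 kb and *Hlf* -27.2 kb elements were the 2 among them with at least 20 CpG. The 3 upstream elements at -163.3, -167.9 and -186.6 kb lie inside *Stxbp4*, the gene of a syntaxin-binding protein, and were found in 7.59%, 23.1% and 11.04% of cells. Their centers were poor in CpG (4 to 7). Downstream, the start of *Mmd* (+141.6 kb) was found in 43.2% of cells, and the elements at +55.9 and +220.7 kb in 8.01% and 5.86%.

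Alternative promoters were compared in windows of 500 bp either side of the starts. Genome-wide, 29.7% of start windows had a fragment in at least 5% of cells. *Mecom* has 7 such windows, and 2 of them passed. The long-form start had 775 fragments in 607 cells (19.5%, 18.1 to 21.0), and the short-form start 281 fragments in 231 cells (7.43%, 6.53 to 8.41). The long form thus had 2.76 times the fragments. Both windows were hit in 62 cells, the long form alone in 545 and the short form alone in 169. Of the cells with 1 of the 2, 76.3% (73.0 to 79.4) had the long form. In 4 depth groups of 777 cells each, the long form was found in 11.97%, 18.7%, 21.1% and 26.4% of cells from the shallowest to the deepest group, and the short form in 4.25%, 7.34%, 8.75% and 9.40%. The long form was the more frequent in each of the 4 groups. The other 5 *Mecom* start windows were found in 0.161 to 1.77% of cells.

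The long-form value depended on the width of the window. Within 250 bp of the start the share was 9.68%, and within 1000 bp it was 40.9%. The short-form share was 5.31% and 9.85% in the same windows. For *Prdm16* the shares were 19.6% and 42.0%, and for *Hlf* they were 39.4% and 41.6%.

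*Prdm16* has 4 start windows, of which the main one passed. It had 1306 fragments in 938 cells (30.2%, 28.6 to 31.8), and the other 3 were found in 0.483 to 1.87% of cells. At *Hlf* all 4 start windows passed. The main one had 1736 fragments in 1243 cells (39.99%, 38.3 to 41.7). Those at +1.3 and +2.8 kb were found in 8.04% and 6.37% of cells, and the one at +9.0 kb in 404 cells (interval 11.8 to 14.2%). Of the cells with either the main or the +9.0 kb window but not both, 82.8% (80.6 to 84.8) had the main one. The intervals of the 3 main starts did not overlap, with *Hlf* above *Prdm16* and *Prdm16* above *Mecom*. With each cell thinned to 3000 fragments the order was the same, at 13.2%, 10.2% and 5.53%. The order depended on the window. Within 1000 bp of the starts the shares were 42.0% for *Prdm16*, 41.6% for *Hlf* and 40.9% for *Mecom*, and over the start elements, which differ in width, the order was reversed, with *Mecom* at 63.8%, *Prdm16* at 50.7% and *Hlf* at 43.8%.

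**Figure D2:**
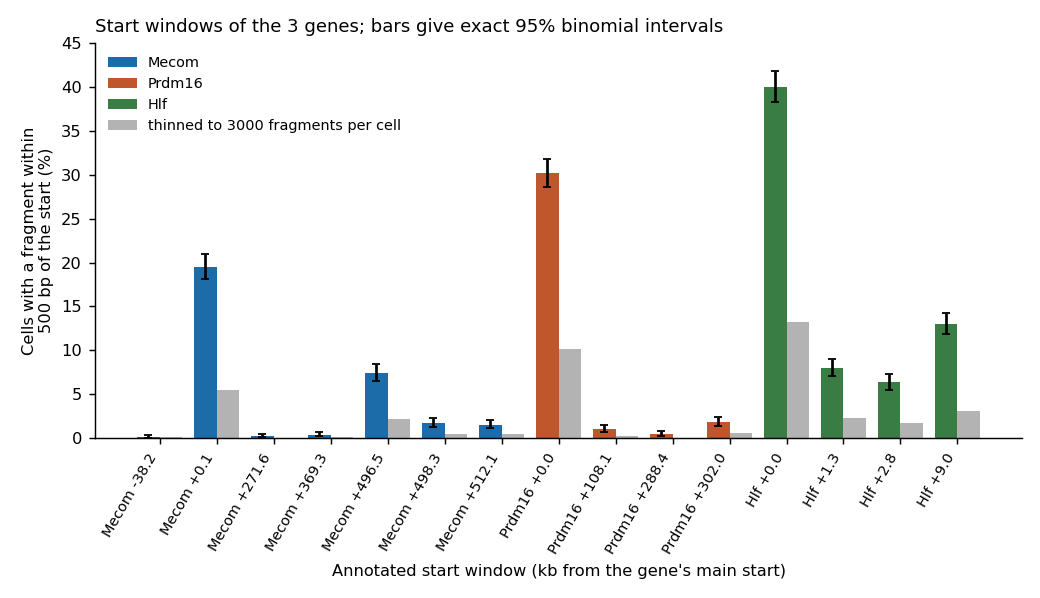
Percentage of the 3108 cells with a fragment end within 500 bp of each annotated start window (y axis), by gene and distance in kb from its main start (x axis), with exact 95% binomial intervals, and in grey the same after thinning each cell to 3000 fragments. *Mecom* has a main window at 19.5% and a second at 7.43%, *Prdm16* 1 window at 30.2%, and *Hlf* a main window at 39.99% with 3 more above 5%.

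The fragment ends lay mostly downstream of the *Mecom* long-form and *Prdm16* starts and close to the *Hlf* start. Within 2 kb of the *Mecom* long-form start lay 7056 fragment ends, 92.0% of them downstream, and the highest 50-bp step, with 672 ends, was centered 1175 bp downstream. Around the *Prdm16* start 68.4% of 5402 ends lay downstream, and the highest step (267 ends) was centered 575 bp downstream. Around the *Hlf* start the ends were split evenly, 47.9% of 4136 downstream, and the highest step (815 ends) was centered 25 bp upstream. The *Mecom* short-form start had 971 ends within 2 kb, and its highest step (55 ends) was also centered 25 bp upstream.

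**Figure D3:**
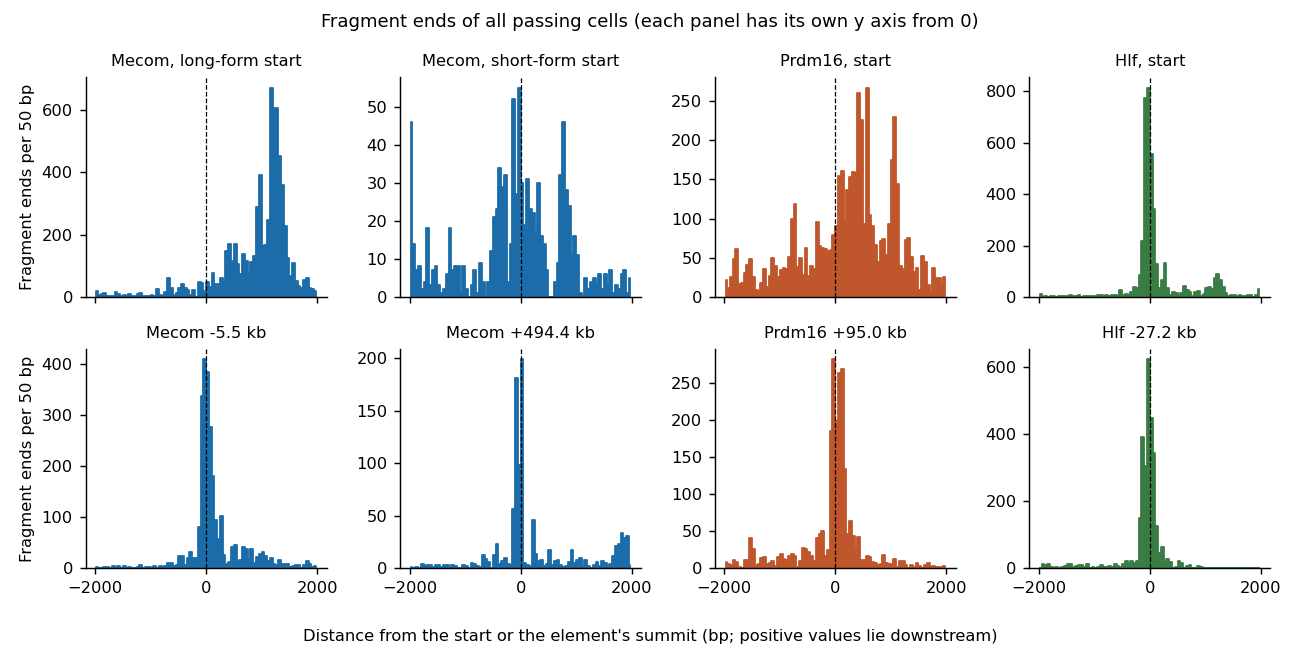
Fragment ends of all kept cells per 50 bp (y axis, own scale in each panel) against the distance from a start or an element's summit in bp (x axis, positive downstream). The *Mecom* long-form signal peaks 1175 bp downstream of its start, the *Hlf* signal 25 bp upstream, and the *Prdm16* signal spreads over the 2 kb on both sides.

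The centers of the elements (150 bases either side of the summit) were searched on both strands for fixed strings, which describe the sequence and are not binding sites. The string of GATA factors, AGATAA, was found in 8 of the 39 elements (20.5%) against 9.31% of the 24626 elements of the genome. Of the 8, 6 were at *Prdm16*, among them +95.02 kb and -161.2 kb, and Hlf -167.9 kb was another. A HOX string (TGATTNAT) was found in 4 (10.3%) against 2.20%, namely Mecom +179.1 kb, Prdm16 +429.4 and +494.5 kb, and Hlf -167.9 kb. ETS (GGAAGT) was found in 12 (30.8%) against 28.2%, the E-box (CAGNTG) in 20 (51.3%) against 51.6%, and RUNX (TGTGGT) in 7 (17.9%) against 20.4%. MEIS (TGACAG) was found in 5 (12.8%) against 17.4%, KLF (GGGNGTGG) in 4 (10.3%) against 18.1%, and CTCF (AGGGGGC) in 3 (7.69%) against 17.3%. AP-1 (TGANTCA) and STAT (TTCNNNGAA) were found in 2 each (5.13%), against 8.23% and 7.15%. The elements of the genome were not matched to the 39 in CpG or in place. The strings differ in GC, and the part of base composition in these shares was not tested. The counts are small.

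The PAR bZIP string (TTACNTAA) was in none of the 39 centers, against 2.00% genome-wide. The EVI1 string (GACAAGATA) was in 1, Prdm16 -161.2 kb, against 14 of 24626 elements (0.0569%), where it overlaps a GATA string. The CRE string was in 1, the Hlf start element, against 2.49%, and in 1.55% of the 250-base RefSeq promoters. The Prdm16 -161.2 kb element was found in 175 cells (5.63%, 4.85 to 6.50).

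Co-opening was described by the Mantel-Haenszel odds ratio that a cell with a fragment in 1 element also had one in the other, over 10 strata of fragments per cell, for pairs at least 2 kb and under 1000 kb apart. Without the strata the median odds ratio was 1.197 at *Mecom*, 1.15 at *Prdm16* and 1.19 at *Hlf*. With them it was 1.06 over 53 pairs, 1.02 over 168 and 1.11 over 36, beside 1.04 over the 540013 pairs of the genome. These medians are not matched for distance. Genome-wide the median was 1.14 for pairs 2 to 20 kb apart, 1.06 from 20 to 100 kb and 1.04 beyond 100 kb. In the same bands it was 1.28, 1.05 and 1.06 over 3, 14 and 36 pairs at *Mecom*, 1.13, 1.09 and 0.994 over 5, 31 and 132 pairs at *Prdm16*, and 1.30, 1.17 and 1.03 over 3, 8 and 25 pairs at *Hlf*. Without the cells marked as doublets the medians were 1.03, 0.990 and 1.04, so that of *Prdm16* lay just under 1. Genome-wide, 5.59% of pairs had a 95% interval above 1 and 1.16% one below 1. At *Mecom* 3 of 53 pairs lay above (5.66%) and none below, at *Prdm16* 4 of 168 lay above (2.38%) and 2 below (1.19%), and at *Hlf* 4 of 36 lay above (11.1%) and none below. The median number of cells expected to hold both elements was 30.7, 27.0 and 85.9 at the 3 loci, against 68.3 genome-wide.

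For the main starts and the strongest elements of the same locus, the pairs were close to what depth gave. Mecom +1.2 kb and -5.5 kb both had a fragment in 597 cells, with 584 expected from depth (odds ratio 1.10, 0.928 to 1.31). Mecom +1.2 kb and the short-form start element both had a fragment in 124 cells, with 116 expected (1.27, 0.901 to 1.79). The Prdm16 start element and +95.02 kb both had a fragment in 401 cells, with 381 expected (1.17, 0.981 to 1.39), and with +105.3 kb in 321, with 330 expected (0.923, 0.769 to 1.11). The +95.02 and +105.3 kb elements both had a fragment in 165 cells, with 154 expected (1.14, 0.925 to 1.40). The Hlf start element and -27.2 kb both had a fragment in 490 cells, with 469 expected (1.13, 0.973 to 1.32). All of these intervals hold 1.

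At *Hlf* all 4 pairs with an interval above 1 were among the elements upstream in *Stxbp4* or between those and another element. With 3 of the 9 elements in *Stxbp4*, most of the 36 pairs include 1 of them, so this is not read as a concentration there. The intervals of single pairs were not computed again without the marked doublets. The -163.3 and -167.9 kb elements both had a fragment in 82 cells, with 60.8 expected (1.64, 1.23 to 2.19), and -167.9 and -186.6 kb in 100, with 84.9 expected (1.30, 1.01 to 1.68). The -163.3 kb element also lay above 1 with the +8.7 kb element (1.79, 1.27 to 2.53) and with +220.7 kb (1.97, 1.25 to 3.10). At *Mecom* the 3 were +443.0 with +179.1 kb (1.97, 1.29 to 2.99), +53.6 with -85.8 kb (1.76, 1.14 to 2.72) and +494.4 with +53.6 kb (1.68, 1.16 to 2.42). At *Prdm16* the +86.5 and -161.2 kb elements had the highest ratio, at 1.98 (1.19 to 3.31), from 19 cells with 10.9 expected. The other 3 above 1 were +429.4 with +335.1 kb (1.62, 1.01 to 2.61), +335.1 with -37.9 kb (1.61, 1.05 to 2.47) and +473.3 with +105.3 kb (1.60, 1.18 to 2.17). The 2 pairs below 1 were +473.3 with -161.2 kb, in 7 cells with 14.2 expected (0.449, 0.207 to 0.976), and +105.3 with -37.9 kb, in 35 cells with 46.4 expected (0.685, 0.470 to 0.998).

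**Figure D4:**
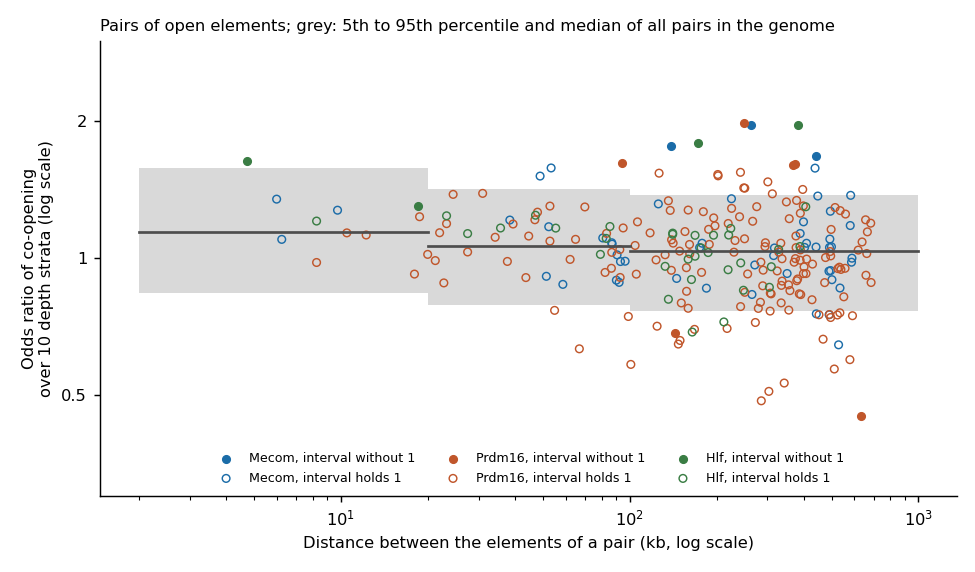
Odds ratio of co-opening over 10 depth strata (y axis, log scale) against the distance between the 2 elements in kb (x axis, log scale) for each pair of a locus, filled where the 95% interval leaves out 1, with the median and the 5th to 95th percentile of all pairs of the genome in grey. Most pairs of the 3 loci lie inside the grey range, around medians of 1.06 (*Mecom*), 1.02 (*Prdm16*) and 1.11 (*Hlf*).

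Across the loci, which lie on different chromosomes, the medians were 1.03 over 209 pairs of *Mecom* with *Prdm16*, 1.06 over 99 pairs of *Mecom* with *Hlf*, and 1.05 over 171 pairs of *Prdm16* with *Hlf*. An interval above 1 was found in 9 of the 209 pairs (4.31%), 6 of the 99 (6.06%) and 13 of the 171 (7.60%), and one below 1 in 6 (2.87%), none and 2 (1.17%). The genome's counts above are for pairs on 1 chromosome, so they are no background for these. The share over all pairs on different chromosomes was not computed, so these counts are not read as a trait of the 3 loci. Against all elements on other chromosomes the medians were 1.03 for *Mecom*, 1.02 for *Prdm16* and 1.04 for *Hlf*. The main start elements of *Mecom* and *Prdm16* both had a fragment in 1061 cells, with 1039 expected (odds ratio 1.14, 0.982 to 1.33). All 3 main start windows were hit in 94 cells (3.02%), with 84.4 expected from depth, 2 of them in 569 with 585 expected, 1 in 1368 with 1364 expected, and none in 1077 with 1074 expected. A cell had a fragment in a median of 2 elements at each locus and in at most 7 at *Mecom*, 11 at *Prdm16* and 9 at *Hlf*. No element of the locus was seen in 9.68%, 6.82% and 12.4% of cells.

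The spread between cells was close to that of other genes with as many fragments. The index of dispersion of fragments per cell after scaling by depth, which is 1 for counts that vary by sampling alone, was 1.51 for *Mecom*, 1.44 for *Prdm16* and 1.31 for *Hlf*. These values lay at percentiles 58.0 of 50 genes, 49.5 of 93 and 46.0 of 2150 genes whose fragments were within 1.5 times. Over the cells, the depth-scaled fragments of *Mecom* and *Prdm16* had a Pearson r of 0.0808, and *Hlf* had 0.0183 with *Mecom* and 0.0177 with *Prdm16*. All come from the same library and the same cells. Between *Mecom* and *Prdm16* the r was 0.0485 in the 1554 shallower cells, 0.109 in the 1554 deeper cells, and 0.0853 without the cells marked as doublets. In the same order it was -0.00898, 0.0407 and 0.0117 between *Mecom* and *Hlf*, which changed sign, and 0.0174, 0.0165 and 0.0250 between *Prdm16* and *Hlf*. The genes on other chromosomes with the highest r were *Pik3r1* (0.0869), *Mllt3* (0.0837) and *Mef2c* (0.0825) for *Mecom*, *Mecom* itself, *Pdk2* (0.0727) and *Prdm11* (0.0681) for *Prdm16*, and *Cic* (0.0684), *Mamdc4* (0.0672) and *Calcrl* (0.0660) for *Hlf*. The 99th percentile was 0.0521 over 9809 genes for *Mecom*, 0.0456 over 9623 for *Prdm16* and 0.0467 over 9392 for *Hlf*. The r of *Mecom* with *Prdm16* lay above both of their 99th percentiles and was the highest of those compared with *Prdm16*. The compared genes had at least 1000 fragments and were not matched in fragments to *Mecom* (16647) or *Prdm16* (14021). Whether the rank goes with fragment counts was not tested. Each r is small, the counts per cell are sparse, and the values are given as a description.

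The best start window of a gene passed 5% of cells for 58.6% of protein-coding genes, with a median share of 8.75% over all of them. In the PRDM family 13 of 15 genes passed, with a median of 17.5%. *Prdm10* (48.1%), *Prdm9* (44.5%), *Prdm11* (36.9%) and *Prdm15* (30.8%) had higher shares in this window than *Prdm16* (30.2%), and *Prdm4* (29.5%) had about the same, with intervals that overlap for *Prdm15*, *Prdm16* and *Prdm4*. *Mecom* was at 19.5% and *Prdm2* at 17.5%, with intervals that overlap. The window of 500 bp leaves out the highest step of *Mecom*, 1175 bp downstream, and within 1000 bp its share was 40.9% and that of *Prdm16* 42.0%. The other genes of the lists were not measured at that width, so the order above holds for the 500-bp window alone. *Prdm12* (4.02%) and *Prdm13* (1.74%) did not pass. In the PAR bZIP list all 4 passed. *Tef* (73.1%) and *Dbp* (59.3%) were above *Hlf*, and *Nfil3* was at 26.8%.

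The 6 cofactor genes also passed, from *Ehmt2* (19.6%), which codes for an H3K9 methyltransferase, to *Ctbp1* (61.3%). *Ctbp2* was at 32.6%, *Smad3*, which codes for a TGF-β signal transducer, at 39.1%, and *Suv39h1* at 34.5%. The 17 HSC transcription factor genes all passed, with a median of 24.9%. They ranged from *Gfi1b* (9.43%) to *Lyl1* (72.7%), with *Mllt3* at 40.4%, *Runx1* at 35.4%, *Meis1* at 29.8%, *Gata2* at 24.9% and *Erg* at 14.2%. *Hlf* (39.99%) lay below *Lyl1* and close to *Mllt3*, with intervals that overlap for *Hlf* and *Mllt3*.

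**Figure D5:**
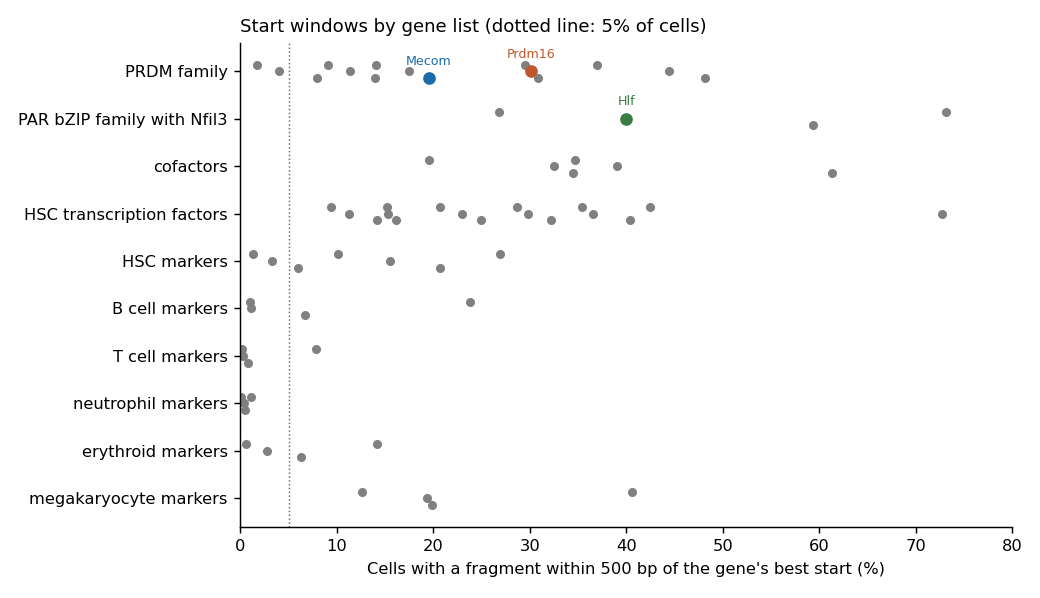
Percentage of the 3108 cells with a fragment end within 500 bp of a gene's best start (x axis) for each gene of the lists (y axis), with *Mecom*, *Prdm16* and *Hlf* named and the 5% limit as a dotted line. The 17 HSC transcription factor genes lie between 9.43% and 72.7%, and the 4 neutrophil genes at or under 1.06%.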

How the data were processed

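The submitters ran Cell Ranger ARC 2.0.2 on its mm10 reference, as the file headers state. It merges duplicate read pairs to 1 fragment and calls cells. The deposited values are counts: fragments per barcode, and each fragment's position with the number of its read pairs. They are not normalized. No source read here states whether fragment ends were moved for the Tn5 offset. Antibody tag counts were not used, and RNA was not analysed here.

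Kept barcodes had more than 3000 fragments in peaks. A fragment counted once in each 500-bp bin that held 1 of its ends. Starts within 500 bp of one another shared a window. Annotation was GENCODE vM21, with main starts and promoters from RefSeq (GRCm38.p6). RefSeq sequences were found for all 3 genes. Intervals of shares are exact binomial at 95%, and those of odds ratios are Robins-Breslow-Greenland. With 1 library, no test between groups was made. Cells likely to be doublets (201, or 6.47%) were marked by sites that over 2 fragments of 1 cell covered, and kept. Named elements were the starts, the 3 elements per locus with the most cells outside starts, and those a co-opening result turned on, with the other open elements added to account for each locus whole; named genes were the lists, genes at open elements and, per gene, the 3 genes on other chromosomes (at least 1000 fragments) with the highest r. The elements printed for their strings were picked after their values were seen. The members and lists were chosen with earlier results of these data known. Some genes of the lists are not reported here. Of the steps, the odds ratio with its interval and the index of dispersion were tested on simulated data. Alternatives were other limits, windows, grids, cells, strata and scalings. The software was Python 3.11.15, with the packages numpy 2.4.6, scipy 1.17.1 and pandas 2.3.3; figures used matplotlib 3.10.9.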

Additional observations from a re-analysis of the deposited data

How the results depend on the processing

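The number of open elements followed the limit and the depth. At 2.5% of cells it was 20 for *Mecom*, 31 for *Prdm16* and 16 for *Hlf*, at 10% of cells 3, 6 and 5, and with each cell thinned to 3000 fragments 3, 3 and 4. With all called cells, which adds shallower ones, it was 7 for *Mecom* and 12 for *Prdm16*. Counting overlaps, moving the grid by 250 bp and leaving out marked doublets kept the 3 counts within 1.5 times (9 to 19). Start windows of 250 bp either side gave 9.68% of cells for the *Mecom* long form, 5.31% for its short form and 19.6% for *Prdm16*, and windows of 1000 bp gave 40.9%, 9.85% and 42.0%. With all called cells the shares were 16.7%, 6.52%, 26.2% and, for *Hlf*, 34.7%, and after thinning 5.53%, 2.25%, 10.2% and 13.2%. These shares thus depend on the depth and the window. The median odds ratios ranged from 1.03 to 1.14 at *Mecom*, 0.990 to 1.02 at *Prdm16* and 1.04 to 1.12 at *Hlf* over 5 alternatives each, where the lower end at each locus came without the marked doublets. The *Prdm16* median lay under 1 in 2 of the 5, at 0.998 with a 10% limit and 0.990 without doublets. The index of dispersion moved by less than 1.5 times under each alternative. No paired analysis was possible because there is 1 ATAC library and no group to pair it with.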
